A study of Homo sapiens with 29 samples.

Results

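The human leukocyte antigen (HLA) class II genes HLA-DRA, HLA-DRB1, HLA-DPA1, HLA-DPB1, HLA-DMA and HLA-DMB were followed together with CD74 and CIITA in tumours grown from MDA-MB-231 cells. MDA-MB-231 is a human triple-negative breast cancer line. The 8 genes were listed by symbol and found by their Ensembl identifiers, and all 8 were among the 58302 genes of the count table. In all, 29 libraries in 8 groups were available. Parental tumours (15 libraries) came from unselected MDA-MB-231 cells, with 4 libraries under vehicle, 4 under decitabine, 3 under doxorubicin and 4 under both drugs. Resistant tumours (14 libraries) came from 1 paclitaxel-resistant line derived from these cells, with 4, 3, 4 and 3 libraries in the same order. Decitabine, a DNA methyltransferase inhibitor, was given at 0.4 mg/kg and doxorubicin, an anthracycline, at 1 mg/kg, for 26 days in all. The study asked whether resistance is tied to expression changes that follow DNA methylation, and whether decitabine undoes them.

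Limits of the model touch every comparison of the lines. Parental tumours were started with 250000 cells and treated from day 6, whereas resistant tumours were started with 1500000 cells and treated from day 16, and the line cannot be told apart from these settings. All mice were SCID-beige, which lack T and B cells and have impaired NK cells but keep macrophages and dendritic cells. Injections were bilateral, and no label says which libraries shared a mouse, so the p-values here reflect only how these samples spread. Each library held 3398261 to 5382295 counts (median 4600007). Parental vehicle 3 and resistant decitabine 2 stood apart from the other libraries on the second principal component, at 34.6 and 43.1 against at most 20.6. In bulk tumours, fewer cells of a type and less RNA per cell cannot be told apart.

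Class II molecules carry peptides from endosomes to the cell surface, where CD4 T cells read them. HLA-DRA and HLA-DPA1 encode α chains, and HLA-DRB1 and HLA-DPB1 encode the matching β chains. CD74, the invariant chain, plugs the groove of new class II dimers and is also a surface receptor for the cytokine MIF, and HLA-DMA with HLA-DMB forms the exchange factor that swaps the last CD74 fragment for other peptides. CIITA, the class II transactivator, binds no DNA itself and is recruited by RFX, CREB and NF-Y factors that sit on the X and Y boxes of these promoters. Professional antigen-presenting cells make class II constitutively, and many other cells, carcinoma cells among them, can be induced by interferon gamma.

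Of the 8 genes, 6 lie within 647.4 kb of chromosome 6 (GRCh38 coordinates of the GENCODE annotation). HLA-DRA (ENSG00000204287) is at chr6:32439842-32445046 on the plus strand, HLA-DRB1 (ENSG00000196126) at chr6:32578769-32589848 on the minus strand, HLA-DMB (ENSG00000242574) at chr6:32934629-32941070 on the minus strand and HLA-DMA (ENSG00000204257) at chr6:32948613-32969094 on the minus strand. HLA-DPA1 (ENSG00000231389), at chr6:33064569-33080775 on the minus strand, overlaps HLA-DPB1 (ENSG00000223865), at chr6:33075926-33087201 on the plus strand. CD74 (ENSG00000019582) is at chr5:150401637-150412929 on the minus strand, and CIITA (ENSG00000179583) at chr16:10866222-10943021 on the plus strand. Libraries were made with a kit that reads tags near the 3′ end of poly(A) RNA, so that the promoter from which CIITA was started could not be seen. The strand setting of the counting is not given in the sources used here, and reads of HLA-DPA1 and HLA-DPB1, or of HLA-DRB1 and its near-identical copies, could have been split or joined, so values of these genes are uncertain. HLA-DPA1 and HLA-DPB1 overlap at their 5′ ends, away from the 3′ ends that the kit reads. The share of their reads that fell in the overlap is not given here.

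The promoter stretches that hold X or Y box letters are shown because CIITA acts through these boxes. RefSeq windows (GRCh38.p14, 250 bases before to 50 after a start) were found for 6 of the 8 genes. Capitals mark the X box core AACNGATG and the Y box core GATTGG, both searched on both strands, with the Y core read as CCAATC on the opposite strand. Sequences run 5′ to 3′ on the gene's strand and are of the reference genome, not of the alleles of MDA-MB-231.
HLA-DRB1 (chr6:32589870-32589944, minus strand): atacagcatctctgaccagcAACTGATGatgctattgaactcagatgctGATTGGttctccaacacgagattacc
HLA-DMB (chr6:32941025-32941133, minus strand): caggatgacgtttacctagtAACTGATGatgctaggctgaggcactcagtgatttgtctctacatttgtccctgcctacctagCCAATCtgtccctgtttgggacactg
HLA-DPB1 (chr6:33075895-33075940, plus strand): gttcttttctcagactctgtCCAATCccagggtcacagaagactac
HLA-DMA (chr6:32953152-32953197, minus strand): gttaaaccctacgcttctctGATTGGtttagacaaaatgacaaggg

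HLA-DRB1 and HLA-DMB held both cores, with the first X base 76 and 85 bases before the start. Among 35116 promoter windows of the same length, 1.99% held the X core, 15.1% the Y core and 0.279% both. HLA-DPB1 and HLA-DMA held the Y core alone, and the windows of CD74 and both windows of HLA-DPA1 held neither set of letters, which says nothing of the factors. The windows of HLA-DRB1, HLA-DPB1, HLA-DMA, HLA-DMB and CD74 held 1 to 4 CpG dinucleotides, and those of HLA-DPA1 27 and 4, against a median of 14 over all windows. No methylation was measured in these files.

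HLA-DRA was higher in every resistant library than in any parental one. The share of all genes that split the lines this completely is not given here, for this gene or those below. The first principal component (40.6% of the variance) also separated the lines. Levels are given as CPM, counts divided by the scaled library size and brought to a common total. Under vehicle, the parental libraries were at 0.217, 0.772, 1.86 and 3.42 CPM and the resistant libraries at 11.2, 14.01, 16.2 and 18.5 CPM. Under doxorubicin, parental libraries were at 0.782, 1.32 and 1.92 CPM, and resistant libraries at 26.1, 29.2, 37.6 and 72.9 CPM. These resistant doxorubicin libraries were the highest group, and 1 of them was far above the other three.

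The remaining groups kept the same side. Under decitabine, HLA-DRA was at 0.949 to 1.39 CPM in 4 parental libraries and at 9.66, 14.9 and 23.7 CPM in the resistant ones. Under the combination it was at 2.36, 2.92, 3.23 and 5.59 CPM in parental and 9.67, 25.7 and 33.6 CPM in resistant libraries. Ordered by mean, the groups ran from parental decitabine (1.17 ± 0.181 CPM, SD, n = 4) through parental doxorubicin, vehicle (1.57 ± 1.41) and combination (3.52 ± 1.42), then resistant vehicle (14.98 ± 3.15), decitabine, combination and doxorubicin (41.4 ± 21.5). Neighbours in this order overlapped, except between parental combination and resistant vehicle, where a gap separated the lines.

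**Figure D1:**
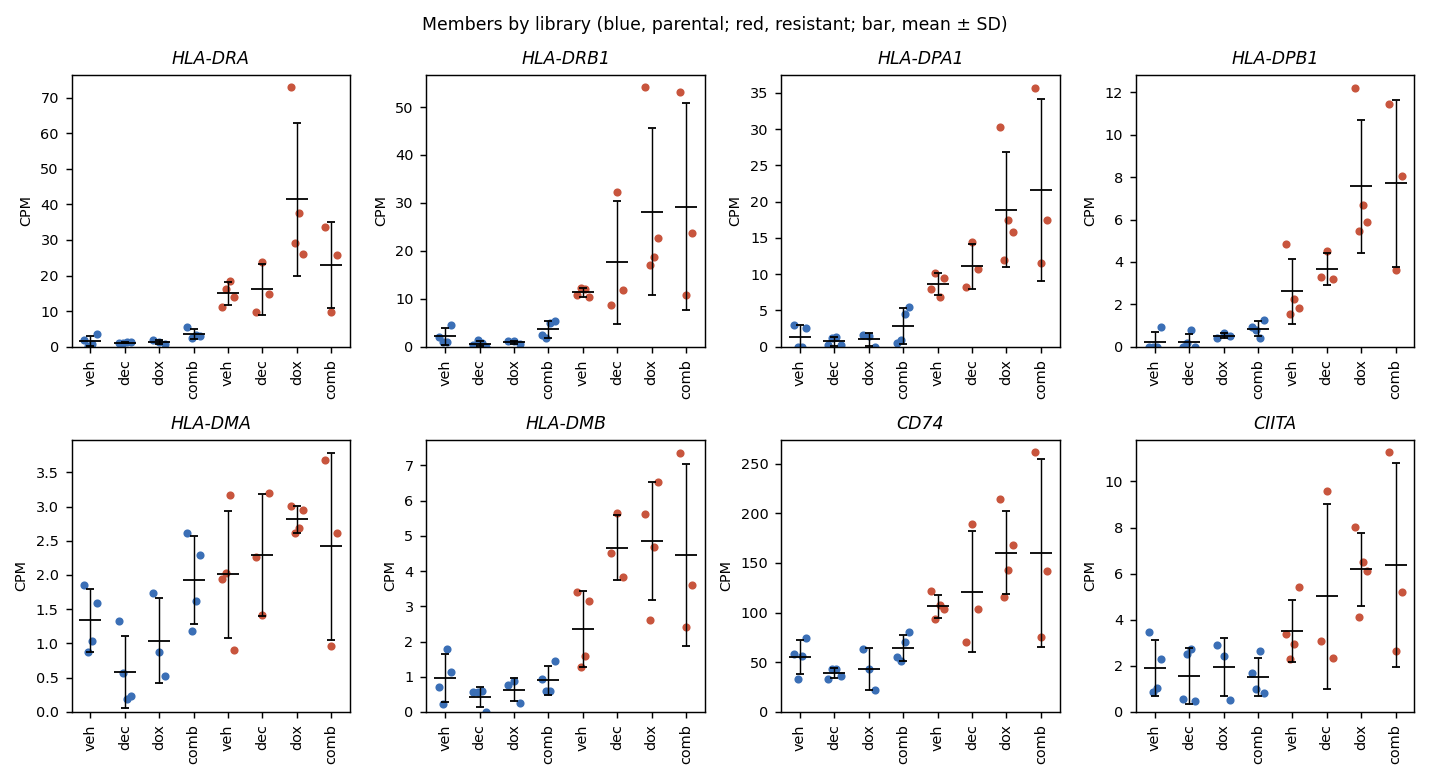
CPM of the 8 genes in each library, by group (veh, vehicle; dec, decitabine; dox, doxorubicin; comb, combination; blue, parental; red, resistant); bars show the mean ± SD of 3 or 4 libraries, and each panel has its own linear axis from 0. The 14 resistant libraries lie above all 15 parental ones for HLA-DRA, HLA-DRB1, HLA-DPA1 and HLA-DPB1, whereas the lines overlap for the other genes. The share of all genes that split the lines in this way is not given here.

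HLA-DRB1, the partner chain of HLA-DRA, showed the same split of the lines. It was at 0.869, 1.03, 2.09 and 4.56 CPM in parental vehicle and at 10.4, 10.7, 12.0 and 12.2 CPM in resistant vehicle libraries, the most even of its resistant groups (11.3 ± 0.896 CPM). Resistant doxorubicin libraries were at 17.0, 18.8, 22.7 and 54.1 CPM, and resistant combination libraries at 10.9, 23.7 and 53.0 CPM. Across treatments, HLA-DRB1 ranged from 0.0 to 5.42 CPM in 15 parental libraries and from 8.63 to 54.1 CPM in 14 resistant libraries.

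The DP chains were low in parental tumours. HLA-DPA1 had no count in 2 of 4 parental vehicle libraries, 3.01 and 2.51 CPM in the others, and 6.78 to 10.1 CPM in the resistant vehicle libraries. HLA-DPB1 had no count in 3 of 4 parental vehicle libraries and 4 counts (0.912 CPM) in the fourth, against 1.52, 1.81, 2.26 and 4.86 CPM in resistant vehicle libraries. Neither gene overlapped between the lines in any of 29 libraries. Counting error alone is wide here: the ratio of HLA-DPB1 counts under vehicle (44 against 4) was 11.2, with an exact 95% interval of 4.07 to 42.8.

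CD74 was abundant in both lines. Parental vehicle libraries were at 33.0, 56.1, 58.2 and 74.8 CPM and resistant vehicle libraries at 93.5, 104.0, 107.2 and 121.4 CPM. Under doxorubicin, parental libraries were at 22.1, 43.7 and 63.9 CPM, and resistant libraries at 115.9, 143.1, 168.0 and 214.1 CPM. The lines were apart in each of these pairs, but 2 resistant libraries (resistant decitabine 1 at 70.9 CPM and resistant combination 2 at 75.7 CPM) fell within the parental range of 22.1 to 80.6 CPM.

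CIITA, the transactivator, was low throughout. Parental vehicle libraries were at 0.869, 1.03, 2.28 and 3.48 CPM and resistant vehicle libraries at 2.28, 2.94, 3.399 and 5.42 CPM, so the groups overlapped. Under doxorubicin they did not: 0.521, 2.42 and 2.88 CPM against 4.14, 6.10, 6.48 and 8.01 CPM. The highest level of all, 11.3 CPM, was in resistant combination 1, and 8 of 14 resistant libraries were above the highest parental one.

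The 2 genes of the exchange factor differed from each other. HLA-DMB was at 0.0 to 1.80 CPM in parental and 1.27 to 7.36 CPM in resistant libraries, and 12 of 14 resistant libraries exceeded every parental one. HLA-DMA was at 0.195 to 2.61 CPM and 0.904 to 3.68 CPM, and only 8 of 14 did. Each pair of neighbouring groups in the order of HLA-DMA means overlapped, from parental decitabine (0.583 ± 0.526 CPM) to resistant doxorubicin (2.81 ± 0.192 CPM).

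Under vehicle, 5 of the 8 genes were called higher in resistant tumours at an adjusted p under 0.05, in a comparison in which 8.66% of the 13495 genes tested were called higher. Values are log2 fold changes (resistant over parental) with standard errors, from edgeR's quasi-likelihood test with Benjamini-Hochberg adjustment over all genes tested. HLA-DRA was 3.23 (SE 0.50, adjusted p = 3.82e-05), a 9.40-fold difference, and HLA-DPB1 3.34 (SE 0.76, adjusted p = 0.00204). HLA-DPA1 was 2.60 (SE 0.68, adjusted p = 0.00794) and HLA-DRB1 2.38 (SE 0.61, adjusted p = 0.0068). These 4 chain genes were called in each alternative analysis of the 4 line comparisons. CD74 was 0.94 (SE 0.34, adjusted p = 0.0493), close to the threshold: its call was lost without any 1 of the 8 libraries other than parental vehicle 4, with adjusted p from 0.0596 to 0.135. HLA-DMB (1.31, SE 0.52, adjusted p = 0.0739), CIITA (0.87, SE 0.58, adjusted p = 0.311) and HLA-DMA (0.58, SE 0.47, adjusted p = 0.422) did not pass, although HLA-DMB did without parental vehicle 3 (adjusted p = 0.0383) or resistant vehicle 2 (0.0491). All 8 genes passed the filter on low counts, but HLA-DPB1 and HLA-DMB had 10 counts or more in no parental library and HLA-DMA in 2, so these 3 passed through the resistant libraries and their calls are not support for the set.

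**Figure D2:**
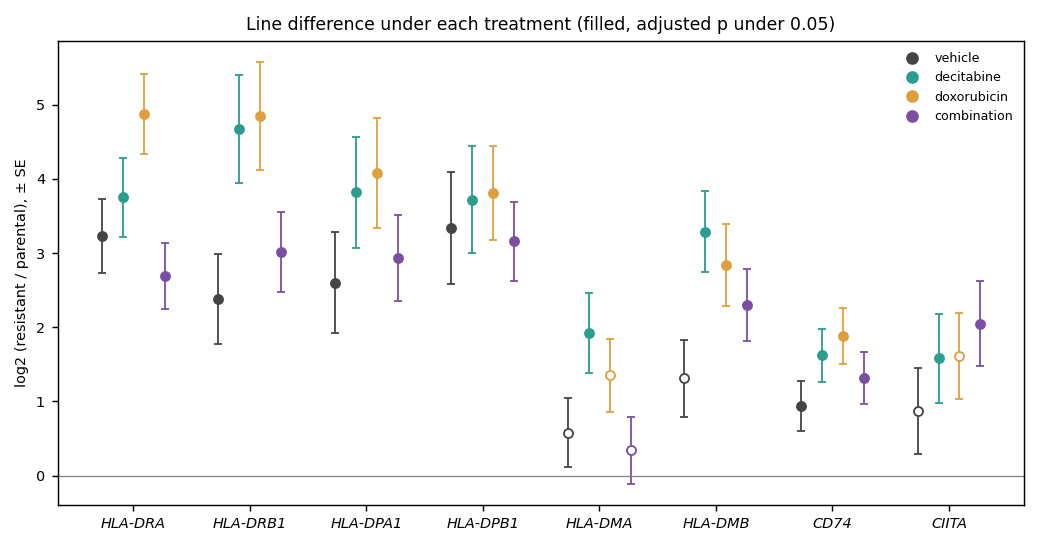
Log2 fold change of resistant over parental tumours (y axis, ± SE) for the 8 genes under each of 4 treatments, from the fit to 29 libraries; filled points passed an adjusted p of 0.05. The DR and DP chain genes lie between 2.38 and 4.88, and open points are seen for HLA-DMA, HLA-DMB and CIITA.

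Under the drugs the DR and DP chain genes again stood higher in the resistant line. With decitabine, 8 of 8 genes were called higher, against 13.7% of all genes tested. HLA-DRB1 was 4.67 (SE 0.73, adjusted p = 4.47e-05), HLA-DPA1 3.82 (SE 0.75), HLA-DRA 3.75 (SE 0.53), HLA-DPB1 3.72 (SE 0.72) and HLA-DMB 3.29 (SE 0.55). HLA-DMA was 1.92 (SE 0.54, adjusted p = 0.00883), a call lost without resistant decitabine 3 (adjusted p = 0.0576). CD74 was 1.62 (SE 0.36, adjusted p = 0.00173). The call of CIITA (1.58, SE 0.60, adjusted p = 0.0493) was lost without parental decitabine 1 (adjusted p = 0.136), parental decitabine 4 (0.115) or resistant decitabine 2 (log2 0.76, adjusted p = 0.476), in which CIITA reached 9.61 CPM against 3.08 and 2.34 CPM in the other resistant decitabine libraries. It was also lost with a filter of 1 CPM (0.0547), with a replicate block (0.0654), in a fit to only these groups (0.116) and without parental vehicle 3 and resistant decitabine 2 together (0.464), which makes 7 of 15 alternatives.

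With doxorubicin, 6 of 8 genes were called higher, against 5.88% of all genes tested. HLA-DRA was 4.88 (SE 0.54, adjusted p = 4.17e-07), a 29.4-fold difference, and HLA-DRB1 4.85 (SE 0.73), HLA-DPA1 4.08 (SE 0.74), HLA-DPB1 3.81 (SE 0.63), HLA-DMB 2.84 (SE 0.55) and CD74 1.88 (SE 0.38) followed. CIITA (1.61, SE 0.58, adjusted p = 0.0654) and HLA-DMA (1.35, SE 0.49, adjusted p = 0.067) did not pass. HLA-DMA did in 3 of 15 alternatives: without parental doxorubicin 1 (adjusted p = 0.046), with a replicate block (0.0399) and in a fit to only these groups (0.0342). CIITA did in 4 of 15: with no filter on low counts (0.00149), in a fit to only these groups (0.00974), without parental vehicle 3 and resistant decitabine 2 (0.0363) and in DESeq2 (0.0445).

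With the combination, 7 of 8 genes were called higher, against 10.6% of all genes tested. HLA-DPB1 was 3.16 (SE 0.53), HLA-DRB1 3.02 (SE 0.54), HLA-DPA1 2.94 (SE 0.58), HLA-DRA 2.69 (SE 0.44) and HLA-DMB 2.30 (SE 0.49). CIITA (2.05, SE 0.57, adjusted p = 0.0117) and CD74 (1.31, SE 0.35, adjusted p = 0.00989) rested on resistant combination 1: without it they were 1.36 (adjusted p = 0.153) and 0.76 (adjusted p = 0.154). HLA-DMA was 0.34 (SE 0.45, adjusted p = 0.611). Over the 8 genes, the median log2 difference was 1.84 under vehicle, 3.5 under decitabine, 3.32 under doxorubicin and 2.5 under the combination, where the median of all genes tested was 0.02, -0.02, 0.01 and -0.01. HLA-DPB1, HLA-DMB and HLA-DMA passed the filter through the resistant libraries. Their part in these medians and in the counts of genes called is not support for the set.

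No member was called in any comparison of a drug with vehicle within a line. In parental tumours, 0 of 8 were called with decitabine (background 1.67%), doxorubicin (0.23%) or the combination (1.03%), and 0 of 8 had an unadjusted p under 0.05 in any of the 3. Of all genes tested, 19.2%, 10.5% and 17.9% had an unadjusted p under 0.05 in these comparisons. DESeq2 also called no member, but with doxorubicin it gave no adjusted p for HLA-DPB1, HLA-DMA, HLA-DMB and CIITA. With decitabine, HLA-DRB1 was at 0.0, 0.380, 0.780 and 1.34 CPM, a log2 difference from vehicle of -1.68 (SE 0.93, adjusted p = 0.325), and HLA-DMA was -1.12 (SE 0.55, adjusted p = 0.262). With the combination, HLA-DRA was 1.16 (SE 0.58, adjusted p = 0.293) and HLA-DPB1 1.74 (SE 0.90, adjusted p = 0.302). With decitabine in the parental line, 7 of 8 log2 values were below 0, with standard errors of 0.34 to 1.11. The median was -0.68, against 0.01 for all genes tested, and the share of all genes below 0 is not given here. HLA-DMA and HLA-DMB, at 12 and 9 counts in this group, passed the filter through the resistant libraries. These values come from the same libraries and are not independent. Without the filter on low counts, HLA-DRB1 (-1.69, adjusted p = 0.00708) and CD74 (-0.50, adjusted p = 0.0395) were called lower with decitabine, and HLA-DRA was called higher with the combination (1.15, adjusted p = 0.027).

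In resistant tumours all 8 genes had log2 values above 0 with each drug, and again 0 of 8 were called. The genes were measured in the same libraries and the comparisons share the vehicle libraries. Counts of signs, here and in the averages below, are therefore not independent results. With decitabine (background 3.33%), values ran from 0.08 for HLA-DRA to 0.96 for HLA-DMB (SE 0.44, unadjusted p = 0.037, adjusted p = 0.22). HLA-DMB was the 1 gene with an unadjusted p under 0.05, against 19.8% of all genes tested. With doxorubicin (background 0.0%, no gene called in all), values ran from 0.48 for HLA-DMA to 1.53 for HLA-DPB1 (SE 0.44). The vehicle and doxorubicin libraries did not overlap for HLA-DRA, HLA-DRB1, HLA-DPA1 and HLA-DPB1, and the share of all genes that split this way is not given here. HLA-DRA (11.2 to 18.5 CPM with vehicle, 26.1 to 72.9 CPM with doxorubicin) was 1.47 (SE 0.36, unadjusted p = 0.000333, adjusted p = 0.765). HLA-DRB1 was 1.32 (SE 0.47, unadjusted p = 0.00898), HLA-DPA1 1.14 (SE 0.50) and HLA-DMB 1.04 (SE 0.41). These 5 genes had an unadjusted p under 0.05, as did 4.38% of all genes tested (591), and DESeq2 called 1 gene, which was no member. The calls turned on the filter: with all genes kept, HLA-DRA (1.46, adjusted p = 1.85e-09), HLA-DRB1 (1.31, 2.04e-06), HLA-DPA1 (1.13, 0.00227), HLA-DPB1 (1.52, 0.00764) and CD74 (0.58, 0.03) were called higher with doxorubicin. With the combination (background 1.13%), HLA-DPB1 was 1.56 (SE 0.47, adjusted p = 0.107), HLA-DRB1 1.37 (SE 0.49, adjusted p = 0.185) and HLA-DPA1 1.33 (SE 0.53, adjusted p = 0.231). An unadjusted p under 0.05 was seen for 4 of 8, against 15.5% of all genes tested. Without resistant combination 2, HLA-DPB1 passed (1.89, adjusted p = 0.0428). With all genes kept, 4 were called higher, HLA-DRB1, HLA-DPA1, HLA-DPB1 and CD74.

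**Figure D3:**
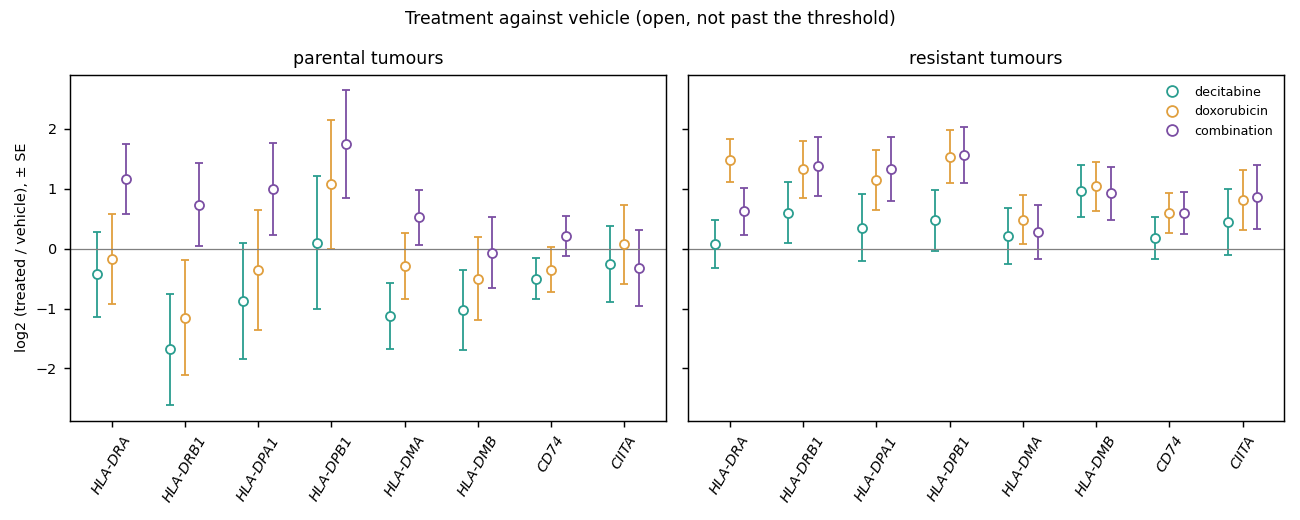
Log2 fold change of each drug over vehicle (y axis, ± SE) for the 8 genes in parental (left) and resistant (right) tumours; every point is open because none passed an adjusted p of 0.05. In resistant tumours all points lie above 0, up to 1.56 for HLA-DPB1 with the combination, and in parental tumours they lie on both sides, from -1.68 to 1.74.

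Averages over more libraries gave smaller errors. Decitabine, averaged over both lines with and without doxorubicin, was called for 0 of 8 (background 6.8%, none called by DESeq2). Its log2 values ran from -0.07 to 0.32, with standard errors of 0.18 to 0.40. No member had an unadjusted p under 0.05, against 19.9% of all genes tested. Doxorubicin, averaged over both lines with and without decitabine, gave 8 of 8 values above 0 and 0 of 8 calls (background 2.37%). In this average 4 of 8 had an unadjusted p under 0.05, against 18.6% of all genes tested. HLA-DPB1 was 1.33 (SE 0.39, adjusted p = 0.0599) and HLA-DRA 0.86 (SE 0.28, adjusted p = 0.0981), and DESeq2 called HLA-DRA (adjusted p = 0.0208). For HLA-DPB1, HLA-DMA, HLA-DMB and CIITA, DESeq2 gave no adjusted p in this average. HLA-DRA also passed without parental vehicle 4 (adjusted p = 0.047) or resistant combination 2 (0.0349). HLA-DPB1 passed without parental vehicle 4 (0.0174), parental decitabine 3 (0.0434), resistant vehicle 1 (0.0454), resistant doxorubicin 3 (0.0483) or resistant combination 2 (0.029). Whether the lines responded differently was tested directly. The line by decitabine term was called for 0 of 8 genes (background 0.119%), with HLA-DRB1 at 2.29 (SE 1.06, adjusted p = 0.234). In this term 2 of 8 had an unadjusted p under 0.05, as did 19.6% of all genes tested. The line by doxorubicin term was called for 0 of 8 (background 0.0%, 1 of 8 at an unadjusted p under 0.05, 1078 of all genes), with HLA-DRB1 at 2.47 (SE 1.06, adjusted p = 0.543) and HLA-DRA at 1.64 (SE 0.84, adjusted p = 0.638). DESeq2 called no member in either, but it gave no adjusted p for HLA-DPB1, HLA-DMA, HLA-DMB and CIITA in these terms. With all genes kept, HLA-DRB1 was called in both terms (adjusted p = 0.0006 and 0.000509), CD74 in the doxorubicin term (0.0107), and 5 of 8 genes in the doxorubicin average.

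Within the resistant line, libraries with more CIITA had more CD74 and more of 5 class II genes, and no such relation passed for HLA-DMA. The share of all genes that follow CIITA this closely is not given here. Across 14 resistant libraries, CIITA and CD74 correlated with Pearson's r 0.887 and Spearman's rho 0.881 (log2 CPM, permutation test, adjusted p = 0.00014 and 0.00168 over 14 relations; the raw p of 1e-05 for r is the smallest that the permutations can give). The permutations ran over libraries of all treatments, so their p-values mix treatment with library differences. The coefficient r was 0.813 without the 2 libraries farthest from the median of CIITA (resistant decitabine 2 and resistant combination 1). It was 0.863 between deviations from the group means, in which treatment differences are removed, a value that was not tested. Pearson's r with CIITA was 0.855 for HLA-DRB1, 0.788 for HLA-DPA1, 0.773 for HLA-DMB, 0.707 for HLA-DRA and 0.704 for HLA-DPB1, and rho was 0.684, 0.701, 0.793, 0.675 and 0.719. The adjusted permutation p of these 5 genes was 0.0132 or less for r and 0.022 or less for rho, and r without the same 2 libraries was 0.682 to 0.769. HLA-DMA was apart, with r 0.155 and rho 0.169 (permutation test, adjusted p = 0.597 and 0.604). It had 4 to 17 counts in a resistant library, and the part of counting noise in its low r was not tested. For deviations from the group means over both lines, 9 genes outside the class II set were more like CD74 than CIITA was (0.744). On the same measure, 25 were more like HLA-DRA than CIITA was (0.593).

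In 15 parental libraries, where several genes are at a few counts, only HLA-DPA1 passed (r 0.639, rho 0.591, permutation test, adjusted p = 0.0247 and 0.045), and r was 0.529 without the 2 farthest libraries (parental decitabine 4 and parental doxorubicin 3). CD74 reached r 0.535 (rho 0.471, permutation test, adjusted p = 0.0707 and 0.138). The other 5 genes had r from 0.21 to 0.473. Between deviations from the group means, which were not tested, r was 0.728 for HLA-DPA1, 0.683 for HLA-DRB1, 0.657 for CD74 and 0.536 for HLA-DRA, against 0.759, 0.812, 0.863 and 0.673 in the resistant line. Whether the relation differs between the lines was not tested. The lines form separate clusters, so no value over both is given.

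**Figure D4:**
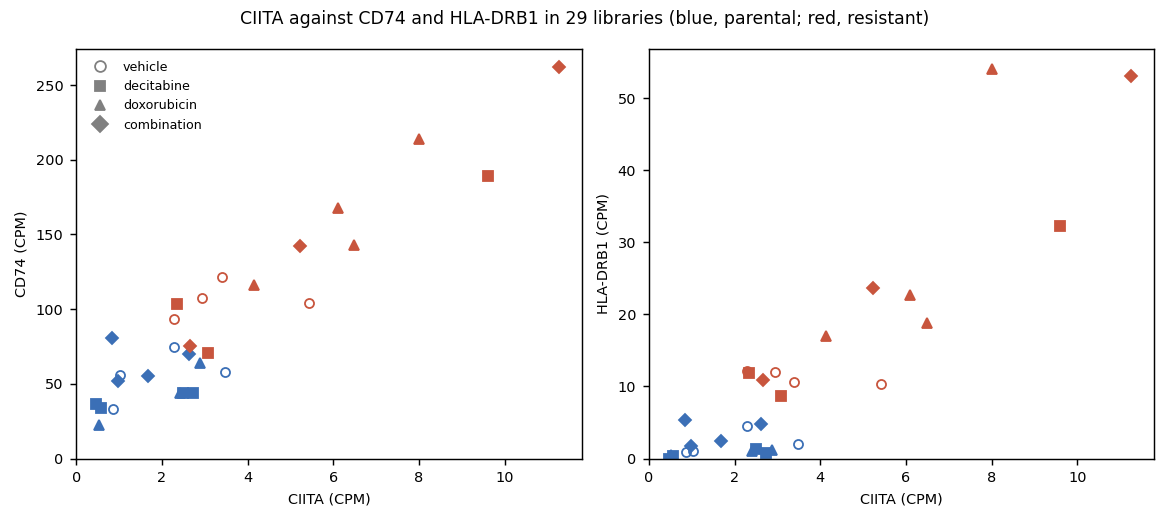
CPM of CIITA (x axis) against CD74 (left) and HLA-DRB1 (right) in 29 libraries, 1 point each (blue, parental; red, resistant; symbols, treatments), on linear axes. Resistant points rise together, up to resistant combination 1 with 11.3 CPM of CIITA and 261.9 CPM of CD74, and parental points stay below 3.5 CPM of CIITA.

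Other class II genes were at few counts, and most of these were in resistant libraries. Of 10 in the table, HLA-DRB6, a pseudogene next to HLA-DRB1, passed the filter. It had 173 counts in the 14 resistant libraries and 4 in the 15 parental ones. HLA-DRB6 thus passed through the resistant libraries, and its values are not support for the set. Levels of HLA-DRB6 were at least 11.5-fold higher under vehicle, 12.2-fold under decitabine and 19.0-fold under doxorubicin, where the parental groups had no count (floor of 3 counts over the group). Under the combination the ratio was 13.2 (95% interval 4.75 to 51.2). HLA-DRB5 had 37 counts against 0, HLA-DOA, a chain of the HLA-DM inhibitor, 19 against 0, and HLA-DQB1 14 against 1. HLA-DOB, the other chain of that inhibitor, had 12 in each line. No count of HLA-DQA1, HLA-DQA2, HLA-DRB9 or HLA-DPB2 was seen in 29 libraries, which allows up to 3 counts in all. Reads of HLA-DRB5 and HLA-DRB6 may belong to HLA-DRB1.

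Not all neighbours on chromosome 6 were higher in the resistant line. Between the start of HLA-DRA and the end of HLA-DPB1 lay 17 genes other than class II genes, of which 6 were tested. PSMB9, an immunoproteasome subunit, was higher under vehicle (log2 1.03, SE 0.22, adjusted p = 0.00112), and so was PSMB8-AS1 (1.40, SE 0.32, adjusted p = 0.00216), an antisense transcript whose reads cannot be told apart from those of its partner without strand. BRD2, a chromatin reader between HLA-DMA and HLA-DPA1, was lower (-0.42, SE 0.11, adjusted p = 0.0064). TAP1, TAP2 and PSMB8 did not pass under vehicle.

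**Figure D5:**
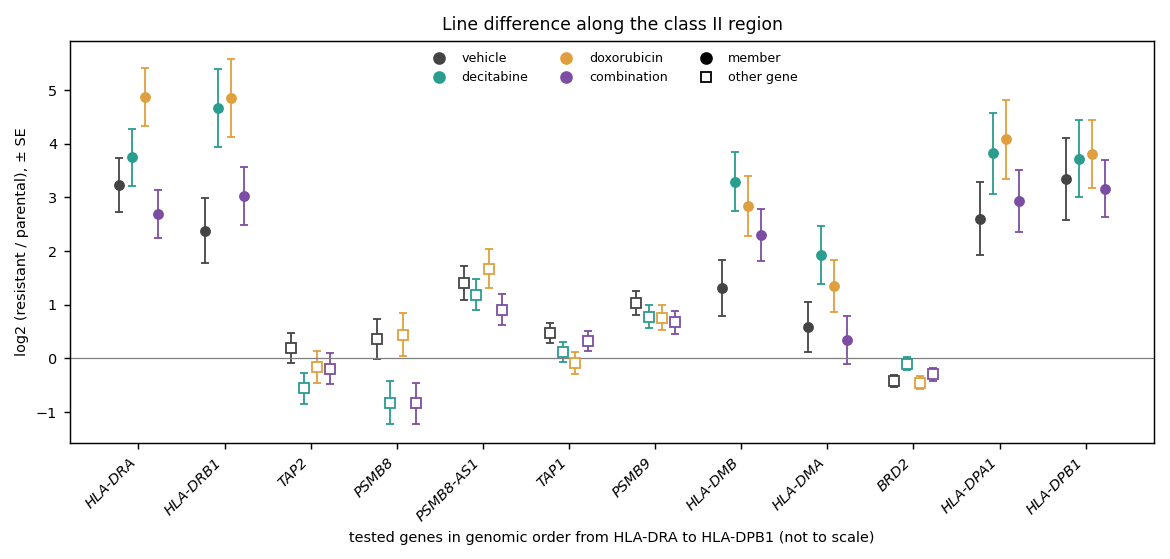
Log2 fold change of resistant over parental tumours (y axis, ± SE) under 4 treatments for 6 members and 6 other tested genes in genomic order; HLA-DRB6 is left out because its parental groups had no count under 3 treatments. DR and DP genes at both ends lie at 2.38 or above, and BRD2 between them lies below 0.

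Of 7 factors that bind class II promoters, at most 1 was called higher in any line comparison, RFXANK under decitabine (0.50, SE 0.16, adjusted p = 0.0167) and RFX5 under the combination (0.56, SE 0.20, adjusted p = 0.0454). The RFXANK call was lost without parental decitabine 2, resistant decitabine 2 or resistant decitabine 3 (adjusted p = 0.062, 0.0554 and 0.0559), without parental vehicle 3 and resistant decitabine 2 together (0.0523) and with no filter on low counts (0.134). The RFX5 call was lost without parental combination 2 or 4 (0.0624 and 0.129) or resistant combination 1 or 2 (0.193 and 0.123), with no filter on low counts (0.123), with a replicate block (0.0615) and in a fit to only these groups (0.092). NFYA, a subunit of the Y box factor NF-Y, was called lower in all 4 line comparisons. It was -1.36 (SE 0.25, adjusted p = 0.000202) under decitabine, -1.22 (SE 0.24, adjusted p = 0.00067) under the combination and -0.78 (SE 0.23, adjusted p = 0.0138) under vehicle, a call lost without resistant vehicle 2 (adjusted p = 0.0571). Under doxorubicin it was -0.70 (SE 0.24, adjusted p = 0.0493), a call that was lost in 13 of 15 alternatives (adjusted p up to 0.155) and kept without resistant doxorubicin 1. NFYC, another subunit, was lower under decitabine (-0.93, SE 0.17, adjusted p = 0.000173). Under vehicle, 0 of 7 factors were called higher and 2 lower, and the list's median was -0.05. Of all 13495 genes tested, 1168, 1849, 793 and 1427 were called higher under vehicle, decitabine, doxorubicin and the combination. Called lower were 1550, 1767, 1086 and 1533, the background for this list and those below.

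The interferon gamma pathway drives CIITA in non-immune cells. Of its 9 genes tested, 0, 1, 1 and 0 were called higher under vehicle, decitabine, doxorubicin and the combination, and 3, 3, 0 and 3 lower. Human IFNG had no count in 29 libraries, which does not measure interferon gamma of the mouse host. The median under vehicle was -0.12. JAK2, a kinase of the interferon receptors, was -0.75 (SE 0.18, adjusted p = 0.00355) and PTPN2, a phosphatase that restrains the pathway, -0.71 (SE 0.14, adjusted p = 0.000458). IRF1, which activates CIITA, did not pass under vehicle and was 0.71 (SE 0.20, adjusted p = 0.0158) under doxorubicin, a call lost without parental doxorubicin 3 (adjusted p = 0.0847) or resistant doxorubicin 1 (0.0533).

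Proteases of the class II route moved in different directions between the lines. CTSS, cathepsin S, which trims CD74, was at 6.05 ± 1.61 CPM in parental and 18.8 ± 3.58 CPM in resistant vehicle tumours (SD over 4 libraries), a log2 difference of 1.64 (SE 0.27, adjusted p = 5.54e-05). It was 1.63 (SE 0.29, adjusted p = 0.000215) under doxorubicin, and it was also called under decitabine and the combination, where leaving out single libraries ended the call in 5 and 6 of 7 cases (adjusted p up to 0.155 and 0.122), all but those of parental decitabine 3, resistant decitabine 2 and parental combination 2. CTSH, cathepsin H, was 0.70 (SE 0.18, adjusted p = 0.00688) under vehicle. LGMN, the protease legumain, was lower under decitabine (-0.94, SE 0.32, adjusted p = 0.03) and the combination (-1.06, SE 0.31, adjusted p = 0.017). The first of these calls was lost without parental decitabine 1, 2 or 3 (adjusted p = 0.0747, 0.0549 and 0.0625) or resistant decitabine 2 (0.193). The second was lost without parental combination 1 (0.0609) or resistant combination 1 or 2 (0.0799 and 0.0739). Of 11 genes of this route tested, 2, 3, 1 and 2 were called higher and 0, 1, 0 and 1 lower under vehicle, decitabine, doxorubicin and the combination, with medians of 0.01, 0.22, 0.04 and 0.19.

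Of 13 class I genes tested, 2 were called higher and 1 lower in resistant tumours under vehicle (median 0.22). Under decitabine, doxorubicin and the combination, 6, 2 and 2 were called higher and 0, 0 and 1 lower. Of all genes tested, 8.66%, 13.7%, 5.88% and 10.6% were called higher under vehicle, decitabine, doxorubicin and the combination. NLRC5, the class I transactivator and a relative of CIITA, was at 16.2 ± 2.88 CPM in parental and 25.3 ± 2.34 CPM in resistant vehicle tumours, a log2 difference of 0.64 (SE 0.17, adjusted p = 0.00903), and PSMB9 is given above. With decitabine against vehicle, 0 of 13 were called in parental tumours and 1 of 13 in resistant tumours (TAPBP, tapasin, 0.68, SE 0.18, adjusted p = 0.0334; lost without resistant vehicle 1, 2 or 4 or resistant decitabine 2, adjusted p = 0.0943, 0.0778, 0.0740 and 0.427). Averaged over lines and doxorubicin, 5 of 13 were called higher and 0 lower (median 0.24), against 534 and 384 of the 13495 genes tested. TAP1, a peptide transporter subunit, was 0.60 (SE 0.10, adjusted p = 0.000181) and HLA-B 0.55 (SE 0.11, adjusted p = 0.0017). In the same comparison IRF1 was 0.46 (SE 0.10, adjusted p = 0.00293) and CTSS 0.67 (SE 0.13, adjusted p = 0.00215), and MARCHF1, a ligase that removes class II from the surface, was lower (-1.09, SE 0.23, adjusted p = 0.00391), while CIITA was -0.04 (SE 0.29, adjusted p = 0.961) and CD74 0.06 (SE 0.18, adjusted p = 0.898).

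Of the markers of cells that make class II constitutively, those of B cells were near 0, and myeloid and dendritic markers differed between the lines in part. The genes counted are human, whereas the macrophages and dendritic cells of the host are mouse cells. The marker values here and below therefore do not measure the host's cells. The B cell list of 8 markers summed to 0.0 to 1.23 CPM in any library, and MS4A1 had no count. Of the 8 dendritic markers, XCR1 and CD1C had no count, FLT3 had 2 in all libraries, and the sum was 3.34 to 9.0 CPM in parental and 5.41 to 13.6 CPM in resistant libraries. BATF3, a transcription factor of dendritic cells and the 1 marker of that list tested, was higher in resistant tumours under decitabine (0.75, SE 0.25, adjusted p = 0.0253) and the combination (0.76, SE 0.26, adjusted p = 0.0357). The first call was lost without parental decitabine 1 or 2 or resistant decitabine 2 (adjusted p = 0.0717, 0.0805 and 0.162), and the second without parental combination 1 or 2 or resistant combination 2 (0.068, 0.115 and 0.238).

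The 14 myeloid markers summed to 67.8 to 109.4 CPM in parental vehicle and 103.1 to 131.2 CPM in resistant vehicle libraries. Under decitabine the sums were 98.3 to 170.2 and 157.8 to 217.8 CPM, under the combination 83.8 to 134.4 and 147.7 to 166.8 CPM, and under doxorubicin 100.6 to 117.1 and 64.4 to 78.7 CPM. The sums thus lay higher in the resistant line under 3 treatments, with overlap under vehicle and decitabine, and lower under doxorubicin. Of 7 myeloid markers tested, 1, 2, 0 and 2 were called higher and 1, 0, 2 and 0 lower under vehicle, decitabine, doxorubicin and the combination.

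LAPTM5, a lysosomal protein of blood cells and the most abundant of these markers, was called higher under vehicle (0.53, adjusted p = 0.0482), decitabine (0.52, 0.0498) and the combination (0.58, 0.0362) and lower under doxorubicin (-0.67, 0.0244). Leaving out single libraries ended these calls in 6 of 8, 5 of 7, 4 of 7 and 5 of 7 cases. They held without parental vehicle 1, resistant vehicle 3, parental decitabine 3, resistant decitabine 3, parental combination 3 or 4, resistant combination 3, parental doxorubicin 3 or resistant doxorubicin 2. FCER1G, a signalling chain of Fc receptors, was 2.75 (SE 0.53, adjusted p = 0.000314) under decitabine. MRC1, the macrophage mannose receptor, was 2.93 (SE 0.80, adjusted p = 0.00957) under the combination, a call lost without resistant combination 1 (adjusted p = 0.0581). CSF1R, the receptor of a macrophage growth factor, was lower under vehicle (-1.5, SE 0.48, adjusted p = 0.0257) and doxorubicin (-2.17, SE 0.50, adjusted p = 0.00313). Its vehicle call was lost without parental vehicle 1 or resistant vehicle 2 or 4 (adjusted p = 0.0687, 0.0604 and 0.0918). CD14 had 14 counts in parental and 56 in resistant libraries. ITGAX had no count, and TYROBP had 2 and SPI1 3 in all libraries.

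The T and NK cell list did move with the line, at 3.25 to 11.1 CPM in parental and 14.9 to 41.5 CPM in resistant libraries. This came from IL7R, a cytokine receptor (log2 2.09 under vehicle, SE 0.29, adjusted p = 7.72e-06), and CD8A (1.82, SE 0.40, adjusted p = 0.00142), whereas CD3E and CD2 had no count in any library. The fibroblast list summed to 218.3 to 2109 CPM and the endothelial list to 20.3 to 72.5 CPM across groups. The part of these markers in the class II differences was not tested, and how mouse reads were handled is not given in the sources used here. Of the markers of the line, VIM was at 1449 to 3031 CPM and KRT18 at 92.6 to 141.4 CPM, while ESR1 reached at most 2.53 CPM and PGR had 1 count in all. ERBB2, whose receptor is low in this subtype, reached 24.5 CPM.

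The genes outside the class II set whose levels were most like HLA-DRA over the 29 libraries (Pearson's r of log2 CPM) were MUC1 (0.932), PTPRN2 (0.925), AHNAK (0.920), DMKN (0.919) and MAPT (0.918). For CD74 they were ATP9A (0.891), ABCC3 (0.887), ALDH3B1 (0.885), TMEM140 (0.879) and PCDHB7 (0.875). The lines form 2 clusters in these values, which are descriptions with no test. Among members, HLA-DRB1 was at 0.946 with HLA-DRA and 0.952 with CD74, which no gene outside the set exceeded, whereas 535 genes were more like HLA-DRA than HLA-DMA was (0.721).

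Between libraries of 1 group, other genes came forward. For deviations from the group means, the genes most like HLA-DRA included CP, the plasma copper carrier ceruloplasmin (0.792), LINC01711 (0.697), PAPPA (0.676) and NAAA (0.664). HLA-DRB1 had 0.704, CD74 0.736 and CIITA 0.593 with HLA-DRA on this measure. For CD74 they were LONP2 (0.771), AIF1L (0.770), LINC02987 (0.768), MON1B (0.765) and MGP (0.765), below HLA-DRB1 (0.824) and near CIITA (0.744). Ranking by Spearman's rho kept 2 of the 5 names for HLA-DRA on either measure, 4 of 5 for CD74 over the libraries and 2 of 5 for its deviations.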

How the data were processed

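Members and lists were chosen with earlier results of these data known. The deposited table holds the authors' unscaled counts of reads for each gene. The submitters' processing notes name GRCh38.p10 as the build and STAR 2.7.3a, featureCounts, cutadapt and DESeq2 as tools; the annotation release, strand setting and treatment of mouse reads are not given in the sources used here. Of 58302 identifiers, 57532 matched a symbol.

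Low genes were removed by filterByExpr at its settings of 10 counts and a total of 15, and 13495 remained. All 29 libraries entered 1 quasi-likelihood fit (robust) in edgeR 4.0.16 under R 4.3.3, with TMM scaling (factors 0.896 to 1.07), 8 group means and Benjamini-Hochberg adjustment within each contrast over all genes tested. The fit was tested on simulated data. DESeq2 1.42.0 was an alternative, as were other scalings and filters, a replicate block, a fit to only the groups compared, and leaving out libraries. The doxorubicin average and the line by doxorubicin term were added after seeing the data. Correlations used 100000 permutations over all libraries of a line regardless of treatment, two-sided, and log2 CPM with a prior count of 2. Intervals (exact, 95%) and floors (3 counts over a group) cover counting error only. Every pair of replicates differed beyond counting noise (chi-square over degrees of freedom at least 3.65). Named genes were all members, called genes of each list (up to 4 per contrast; a part is printed), the 5 genes most like HLA-DRA and CD74, and defining markers; some genes under this rule are not reported here.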

Additional observations from a re-analysis of the deposited data

Results flagged for a closer look

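Of 40 groups of 4 libraries examined for a single library far from the others, 3 held one. Chance gives about 1 in 20 for continuous, normally distributed values. That rate does not hold at a few counts, as for HLA-DPB1 and HLA-DMB below. HLA-DRB1 in resistant doxorubicin was at 54.1 CPM in replicate 1 and between 17.0 and 22.7 CPM in the other libraries. HLA-DPB1 in parental vehicle was at 0.912 CPM (4 counts) in replicate 4 and at 0 in the other libraries. HLA-DMB in parental decitabine was at 0.0 CPM in replicate 4 and between 0.570 and 0.585 CPM in the other libraries, which is a difference of 3 counts. No difference between the lines in their response to a drug passed the test for a member.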

How the results depend on the processing

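Of the values without a test, the 64 group levels moved by less than their SD without TMM scaling. No member's log2 value changed sign in a called comparison. HLA-DRA, HLA-DRB1, HLA-DPA1 and HLA-DPB1 were called in every line comparison under each alternative run. HLA-DPB1 passed the filter on low counts through the resistant libraries, so its calls are not support for the set. Low counts limit HLA-DPB1, HLA-DMA and HLA-DMB in parental tumours, and the cause of the shifts below was not tested unless the alternative itself leaves out samples.

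Replicate numbers in the labels did not pair libraries: correlations of same-numbered libraries ran from -0.405 to 0.427, and 13 of 34 pairs were above 0.1. With a replicate block, genes called went from 225 to 147 for decitabine and from 31 to 3 for doxorubicin in parental tumours, and from 0 to 1 for the line by doxorubicin term.

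Without the filter on low counts, where many more genes were tested, members called rose from 0 to 5 for doxorubicin in resistant tumours, 4 for the combination in resistant tumours, 1 for the combination in parental tumours, 2 for decitabine in parental tumours, 5 for the doxorubicin average, 1 for the line by decitabine term and 2 for the line by doxorubicin term. Genes called were 884 and 783 for the combination in parental and resistant tumours (139 and 152 with the filter), 942 and 1089 for decitabine (225 and 450), 192 and 74 for doxorubicin (31 and 0), 774 for the doxorubicin average (320), 1001 for the line by decitabine term (16) and 108 for the line by doxorubicin term (0).

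DESeq2 called 1 member in the doxorubicin average, where it gave no adjusted p for HLA-DPB1, HLA-DMA, HLA-DMB and CIITA. It called 342 and 256 genes for the combination in parental and resistant tumours, 499 for decitabine in parental tumours, 150 and 1 for doxorubicin, 611 for the doxorubicin average, and 297 and 31 for the line by decitabine and line by doxorubicin terms. Upper quartile scaling gave 32 and 1 for these terms.

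Fits to only the groups compared called 64 and 66 genes for the combination in parental and resistant tumours, 2 and 104 for decitabine, 0 and 4 for doxorubicin, 1 for the line by decitabine term and 2160 (3616 in all groups) between the lines under decitabine. Without parental vehicle 3 and resistant decitabine 2, an alternative chosen after seeing the data, the counts were 85 and 363 for the combination, 96 and 162 for decitabine, 3 for doxorubicin in parental tumours and 7 for the line by decitabine term.

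Leaving out single libraries gave 53 to 154 and 49 to 156 genes for the combination in parental and resistant tumours, 6 to 608 and 146 to 728 for decitabine, 1 to 124 for doxorubicin in parental tumours, 63 to 728 for the doxorubicin average, 7 to 299 and 0 to 1 for the line by decitabine and line by doxorubicin terms, and 1817 to 3142 and 2320 to 3530 between the lines under the combination and decitabine. Members called ranged from 0 to 1 for the combination in resistant tumours and from 0 to 2 for the doxorubicin average.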

Other observations

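Partners of class II on antigen-presenting cells were divided. CD40, a receptor for T cell help, was higher in resistant tumours under vehicle, at 26.4 ± 7.89 against 14.8 ± 2.47 CPM (SD, n = 4 each, log2 0.84, SE 0.18, edgeR adjusted p = 0.00121). ICAM1, an adhesion molecule of the immune synapse, was lower under vehicle, at 5.41 ± 1.32 against 15.7 ± 5.12 CPM (log2 -1.53, SE 0.32, adjusted p = 0.00106). Among 4 such ligands tested under vehicle, 1 was called higher and 1 lower. CD44, the co-receptor through which CD74 signals, was higher in resistant tumours under vehicle (log2 0.68, SE 0.11, adjusted p = 5.78e-05) and under the combination (0.52, SE 0.12, adjusted p = 0.00255).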
